A study of Rattus norvegicus with 12 samples.

Results

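The genes described here are 40 genes of cholesterol handling and of the fatty acid synthesis that shares its control, measured in rat hippocampal slice cultures given antibodies to Nogo-A. They were listed by name for their known roles, by no rule on measured values, but with earlier results of these data known. In the platform annotation 39 of the 40 had at least 1 probe set (the group of short probes that measures 1 transcript) with exactly 1 gene symbol, out of 14217 genes so measured, and Hmgcs1 was not analysed here. By role they were 17 of 18 genes of cholesterol synthesis, 6 of sterol sensing and the SREBP system, 4 of fatty acid synthesis, 3 of lipoprotein uptake, 5 of efflux and its LXR regulators, and 4 of esterification and oxysterols. No member passed the test in any comparison of an antibody with the controls. Among the 3 replicate numbers that every group carried, 19 of the 39 differed, beside 23.6% of all genes. When 1 array was left out 11 to 18 did, beside 9.51% to 24.5% of all genes. Most of the 19, led by the synthesis enzymes and Scd, stood highest in the 4 arrays numbered 1. That split was not counted over all genes called.

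All 12 RNA samples came from Wistar rats with no genetic change given. Hippocampi of postnatal day 7 pups were cut into slices of 350 µm, and 4 slices were kept on each membrane insert at 33 °C until day 26 in vitro. The 4 groups had 3 arrays each. NT cultures received no antibody. IgG cultures received a control monoclonal antibody raised against a plant hormone, wheat auxin. 11C7 and 7B12 cultures received mouse monoclonal antibodies to amino acids 623 to 640 and 763 to 820 of rat Nogo-A, a membrane protein of oligodendrocytes and neurons that limits neurite growth. From day 21 each antibody was present at 3 µg/ml over 5 days. NT and IgG together served as the 6 control arrays. Each RNA sample pooled 24 cultures, and per the labels the replicates of a group were separate cultures from different animals. The labels do not say what samples of the same replicate number share.

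Neurons and glia of the brain make most of their own cholesterol, because lipoproteins of the blood do not cross the blood-brain barrier. Acetyl-CoA is built up through mevalonate and squalene to lanosterol, which is then trimmed to cholesterol. When sterols run low in the membrane of the endoplasmic reticulum, the escort protein Scap brings the SREBP transcription factors to the Golgi for cleavage, and the cleaved factors turn on the synthesis genes; Insig proteins hold this complex back when sterols are plentiful. A surplus leaves the cell through the transporters Abca1 and Abcg1 onto ApoE particles, under the control of the LXR receptors, or is turned into oxysterols, among them the neuron-specific Cyp46a1 product. Myelinating oligodendrocytes need much cholesterol, and astrocytes supply lipoproteins to neurons.

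Every value below is the log2 of the deposited ratio of a probe set less the median of its array, averaged over the probe sets of a gene. A ratio is relative to the gene's own reference, so that 0 lies near the middle of the 12 arrays for most probe sets, and levels cannot be set against each other between genes. Mvk, Srebf2, Nr1h2 and Apoe each had 1 probe set with a median ratio under 1, of 0.246, 0.526, 0.565 and 0.933, so 0 is not the middle value of these probe sets. For the same reason the hippocampal label could not be checked against the presence of cell type markers. Bulk RNA was measured, so fewer cells of a type and less RNA per cell cannot be told apart. Array medians lay between -0.13 and -0.019 on the log2 scale, and no pair of arrays held identical values. With 3 arrays a group, precision is limited by their number.

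Marker lists differed among the arrays. The 11 neuronal markers averaged -1.65 to -1.01 in the arrays numbered 1, 0.18 to 1.13 in those numbered 2 and -0.14 to 0.17 in those numbered 3. The 11 measured myelin markers averaged -0.92 to -0.66, -0.33 to 0.11 and 0.013 to 0.53 in the same order. The 12 inflammation genes averaged -0.83 to -0.36 in the controls, 1.61, -0.12 and 0.12 in the 11C7 arrays numbered 1 to 3, and 1.37, 1.44 and 2.33 in the 7B12 arrays. The 14 microglial markers averaged -0.46 to 0.61 in the controls, -0.37 to 0.40 in 11C7 and 0.25 to 0.91 in 7B12. The part of these markers in the results on the lipid genes was not tested.

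**Figure D1:**
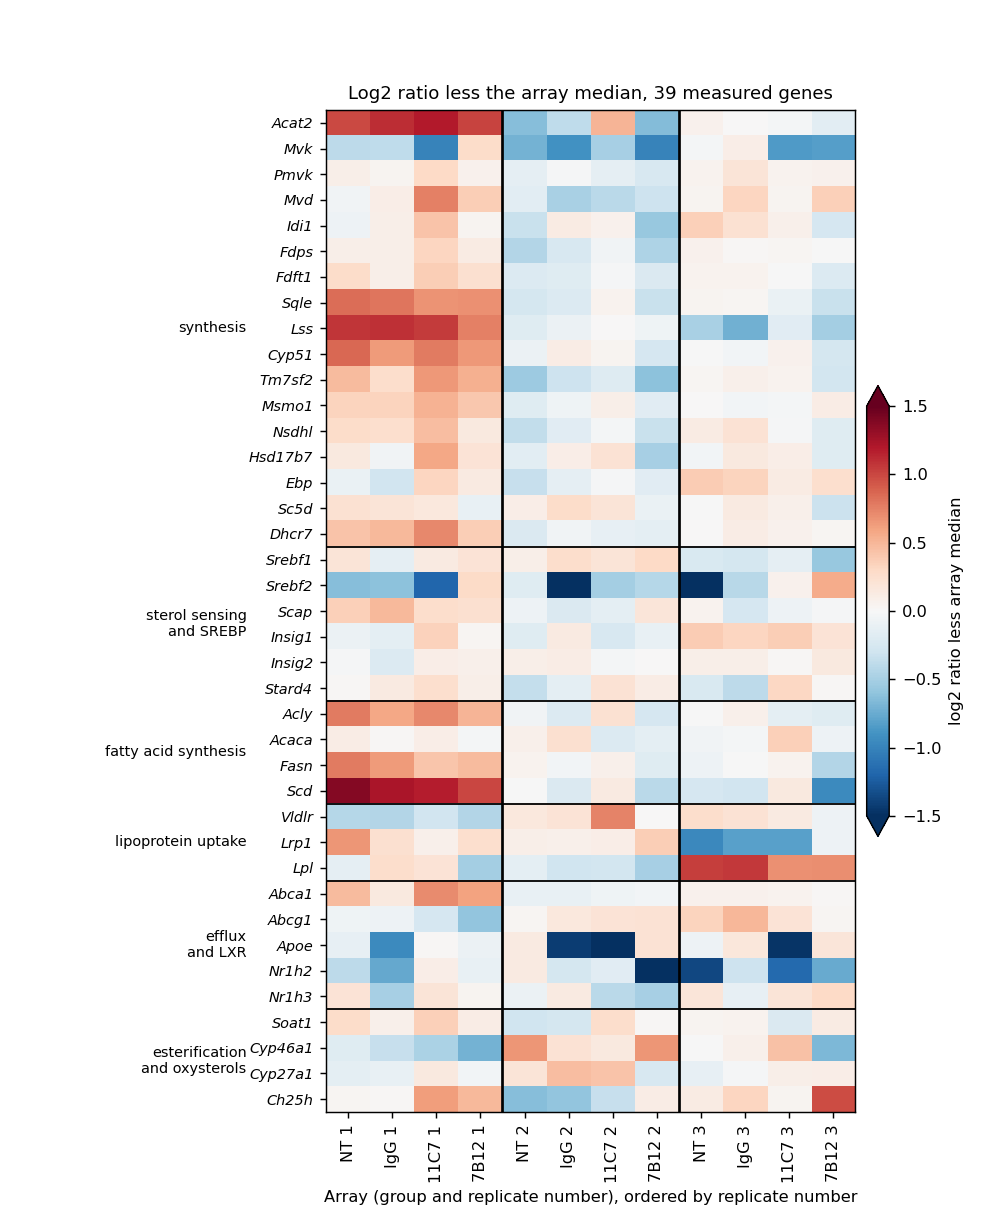
Heat map of the 39 measured genes (rows, by role) in the 12 arrays (columns, ordered by replicate number and then by group). Colour is the log2 ratio less the array median. Acat2, Sqle, Lss, Cyp51, Acly, Fasn and Scd are at 0.42 to 1.38 in the 4 arrays numbered 1.

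The replicate numbers were compared by an F test in limma over the 3 numbers with the group mean as a term, with Benjamini-Hochberg adjustment over all genes. At an adjusted p under 0.05 this test called 19 of the 39 members (48.7%), beside 23.6% of all 14217 genes. In 15 of the 19, number 1 had the highest mean of the 3 numbers, and in 2 the lowest. How the called genes as a whole split by number was not counted, here or for the lists below. Of all 39, 14 had their 4 arrays numbered 1 above all 8 other arrays, beside 8.27% of all genes, and 2 had them below, beside 7.03%. That count was chosen after the values were seen. Which members were called depended on single arrays for part of the list. Leaving out 1 array left 11 to 18 of the 39 called, with 11 without NT 1 or IgG 1 and 12 without NT 2, NT 3 or 11C7 1. The count over all genes ranged from 1352 (9.51%) without NT 1 to 3485 (24.5%) without 11C7 2. Acat2, Sqle, Lss, Cyp51, Tm7sf2, Dhcr7, Acly, Fasn, Scd and Lpl, 10 members in all, were called in each of these fits. The share of all genes called in each of them was not counted, so these 10 have no background beside them.

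Among the synthesis enzymes 10 of 17 were called, and all 10 had their highest mean in number 1. They span the pathway, from the first step to the last. Over the 17 the median difference was -0.48 for number 2 less number 1 and -0.25 for number 3 less number 1, on the log2 scale, beside -0.022 and 0.014 over all genes. Number 2 lay below number 1 in 16 of the 17, and number 3 did in 16 of the 17. The neuronal and myelin markers above were lower in number 1. Not all marker lists ran that way. The 7 measured endothelial markers averaged -0.16 to 0.72 in number 1, -1.29 to -0.75 in number 2 and -0.68 to 0.30 in number 3. The part of these lists in the synthesis values was not tested. Acat2, the cytosolic thiolase that makes acetoacetyl-CoA at the start of the pathway, stood at 0.99, 1.11, 1.19 and 1.01 in the NT, IgG, 11C7 and 7B12 arrays numbered 1. In the same group order it stood at -0.64, -0.38, 0.51 and -0.65 in those numbered 2 and at 0.059, 0.012, -0.03 and -0.16 in those numbered 3. All 4 arrays numbered 1 lay above the other 8, and 11C7 2 stood apart from the other arrays of its number. Acat2 was 2.58-fold higher in number 1 than in number 2 and 2.15-fold higher than in number 3 (limma, adjusted p = 0.00797).

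Sqle, squalene epoxidase, the first oxygen-requiring and a rate-limiting step, stood at 0.84, 0.80, 0.67 and 0.68 in number 1, with the groups in the same order. It stood at -0.26, -0.20, 0.057 and -0.34 in number 2 and at 0.035, 0.035, -0.10 and -0.33 in number 3. The arrays numbered 1 did not overlap with the rest, and 7B12 held the lowest value of numbers 2 and 3. The gene was 1.91-fold higher in number 1 than in number 2 and 1.79-fold higher than in number 3 (limma, adjusted p = 0.00356).

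Lss, lanosterol synthase, which closes the sterol rings, stood at 1.08, 1.09, 1.05 and 0.76 in number 1. Its values were -0.18, -0.086, 0.007 and -0.067 in number 2 and -0.49, -0.72, -0.17 and -0.51 in number 3. Here number 3 was the lowest in all 4 groups. The excess of number 1 was 2.11-fold over number 2 and 2.76-fold over number 3 (limma, adjusted p = 0.00205). The spread between its 2 probe sets was wide in number 3, where one ran from -1.17 to -0.29 and the other from -0.31 to 0.13, while both lay at 0.60 to 1.36 in number 1.

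Cyp51, the lanosterol demethylase, was at 0.64 to 0.87 in number 1, -0.25 to 0.11 in number 2 and -0.26 to 0.061 in number 3 (limma, adjusted p = 0.00338). Tm7sf2, a sterol reductase of the step after it, was at 0.27 to 0.65, -0.61 to -0.19 and -0.28 to 0.071 in the same order (limma, adjusted p = 0.00714). Dhcr7, which makes cholesterol itself in the last step, was at 0.37 to 0.72, -0.21 to -0.055 and 0.010 to 0.11 (limma, adjusted p = 0.00724). In none of these 3 genes did number 1 overlap with the other numbers. Msmo1, Nsdhl, Fdps and Fdft1 were 1.32-fold to 1.42-fold higher in number 1 than in number 2 (limma, adjusted p = 0.0187, 0.0318, 0.0304 and 0.0438). Over number 3 the excess of number 1 was 1.31-fold, 1.19-fold, 1.09-fold and 1.20-fold in the same order. Fdps was 1.25-fold higher in number 3 than in number 2, so number 2 stood apart more than number 1 did. The calls of these genes were less stable. Msmo1 lost it without NT 1, NT 2, IgG 1, 11C7 1 or 7B12 1 (adjusted p up to 0.0714 in limma), Nsdhl without any of 9 arrays (up to 0.0998) and Fdps without any of 10 (up to 0.0979). Fdft1 lost it without any single array (up to 0.136).

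The 7 synthesis genes that were not called by number were Mvk, Pmvk, Mvd, Idi1, Hsd17b7, Ebp and Sc5d, with adjusted p from 0.0729 to 0.526 in limma. The probe sets of Mvk, mevalonate kinase, disagreed. The gene's average lay between -1.01 and 0.27 with no order by number. Of its 3 probe sets, 2 lay at 0.44 to 0.70 in number 1 and at -0.67 to 0.21 in the other arrays, and the remaining probe set ran from -4.31 to 0.059. That last probe set had a median ratio of 0.246 over the 12 arrays, where most probe sets have 1.

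Promoters of 3 synthesis genes called by number are shown as a description, with short matches to the DNA element that SREBP factors bind. Whether such matches bear on the differences among numbers was not tested. Of the 39 members 31 matched by symbol to at least 1 promoter of 300 bases from RefSeq (rat build GRCr8). Each runs from 250 bases before the gene's start to 50 after it. The 33469 promoters belong to 27457 gene symbols, and a gene was counted if any of its promoters held the letters. The sterol element written as TCACNCCAC, on either strand, was in 0 of the 31 and in 1.25% of all 27457 genes. Its shorter core CACNCCA, chosen after that, was in 7 of the 31 (22.6%) and in 18.4% of all. Capitals mark the core and the box CCAAT, on either strand, so that TGGNGTG and ATTGG are the same letters read on the other strand. The 3 genes are those with the core and the smallest p among numbers, each 5′ to 3′ on the gene's strand.
Tm7sf2, minus strand, chr1:212789492-212789791: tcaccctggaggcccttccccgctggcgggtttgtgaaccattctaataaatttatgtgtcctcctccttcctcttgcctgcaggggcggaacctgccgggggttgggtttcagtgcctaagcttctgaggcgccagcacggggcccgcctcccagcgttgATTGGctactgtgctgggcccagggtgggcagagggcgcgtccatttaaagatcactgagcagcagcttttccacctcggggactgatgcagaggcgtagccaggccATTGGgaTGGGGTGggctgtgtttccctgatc
Acat2, plus strand, chr1:50100590-50100889: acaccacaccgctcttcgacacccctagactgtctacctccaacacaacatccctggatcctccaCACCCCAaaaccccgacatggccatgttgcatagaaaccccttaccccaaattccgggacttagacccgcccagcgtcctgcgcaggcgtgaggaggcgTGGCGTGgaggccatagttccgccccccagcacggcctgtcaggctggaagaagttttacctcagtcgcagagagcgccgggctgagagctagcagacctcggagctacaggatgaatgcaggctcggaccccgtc
Msmo1, plus strand, chr16:29746863-29747162: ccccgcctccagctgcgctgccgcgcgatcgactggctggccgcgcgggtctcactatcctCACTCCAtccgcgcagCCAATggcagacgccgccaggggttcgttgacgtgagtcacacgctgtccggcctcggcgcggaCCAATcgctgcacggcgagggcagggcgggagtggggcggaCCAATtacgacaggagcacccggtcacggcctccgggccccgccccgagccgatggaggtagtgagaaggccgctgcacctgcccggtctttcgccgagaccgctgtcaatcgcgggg
The box CCAAT, bound by NF-Y, was in 21 of the 31 (67.7%) and in 39.6% of all genes with a promoter, and in 11 of the 14 synthesis genes with a promoter (78.6%). The box GGGCGG, bound by Sp1, was in 24 of the 31 (77.4%) and in 36.0% of all, and in 12 of the 14 synthesis genes (85.7%). Ebp, with the core and both boxes, was not called by number, and Cyp51 and Dhcr7, with neither the core nor CCAAT in this window, were. A match of letters is a description of the window and not a bound site.

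Of the 4 fatty acid genes, which share SREBP control with the synthesis enzymes, 3 were called by number. Scd, the desaturase that makes monounsaturated fatty acids, stood at 1.38, 1.22, 1.17 and 1.00 in the NT, IgG, 11C7 and 7B12 arrays numbered 1. It stood at -0.011, -0.22, 0.13 and -0.40 in number 2 and at -0.25, -0.28, 0.14 and -0.96 in number 3. Number 1 did not overlap with the rest, and within each number the 7B12 array was the lowest. Number 1 was 2.49-fold above number 2 and 2.89-fold above number 3 (limma, adjusted p = 0.00227). Acly, the source of cytosolic acetyl-CoA, was at 0.51 to 0.78 in number 1 and at -0.25 to 0.22 elsewhere (limma, adjusted p = 0.00772). Fasn, fatty acid synthase, was at 0.42 to 0.78 in number 1 and at -0.44 to 0.076 elsewhere (limma, adjusted p = 0.00969). Acaca, acetyl-CoA carboxylase, which makes malonyl-CoA, did not follow them. It stood at 0.11, 0.017, 0.10 and -0.025 in number 1, 0.079, 0.24, -0.20 and -0.15 in number 2 and -0.052, -0.027, 0.36 and -0.077 in number 3 (limma, adjusted p = 0.921).

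**Figure D2:**
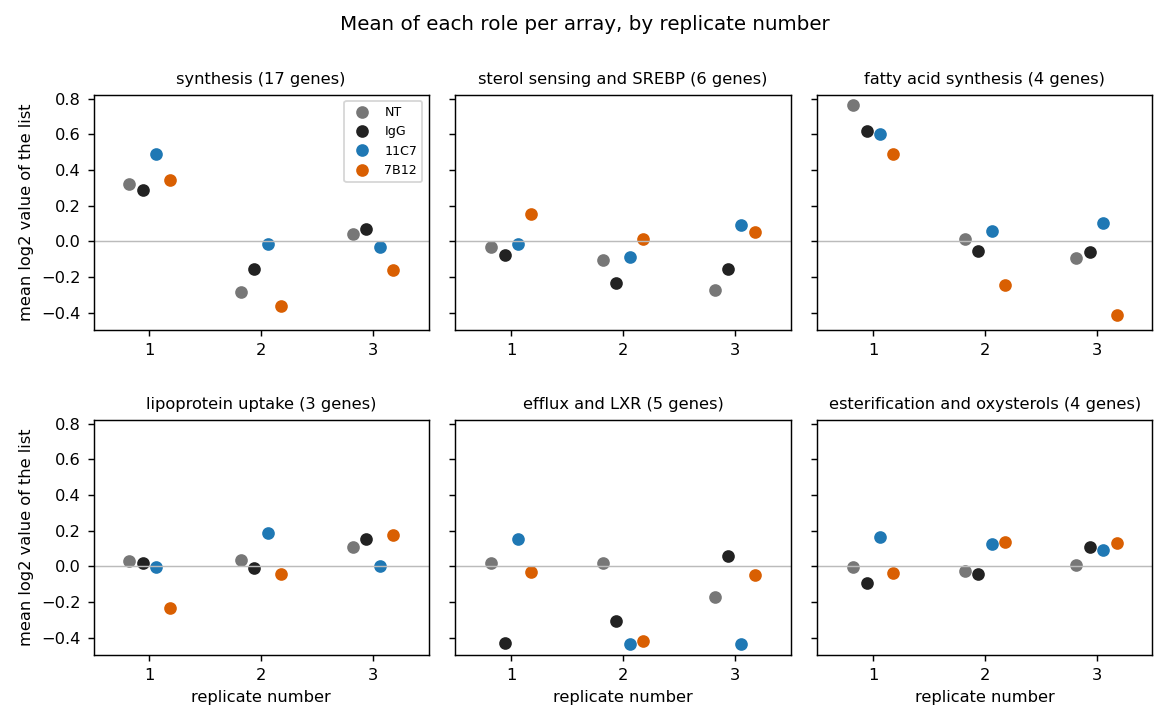
Mean log2 ratio less the array median over the genes of each role, for each of the 12 arrays, arranged by replicate number, with 1 point per array and the groups by colour. The synthesis mean is 0.29 to 0.49 in number 1, -0.36 to -0.017 in number 2 and -0.16 to 0.069 in number 3, and the fatty acid mean is 0.49 to 0.76 in number 1 and -0.41 to 0.10 in the other arrays.

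None of the 6 genes of sterol sensing passed the test by number, although 1 of them, the escort protein Scap, had its 4 arrays numbered 1 at 0.24 to 0.49 and all others at -0.25 to 0.18 (limma, adjusted p = 0.0571). Insig1, which retains the SREBP complex and is itself an SREBP target, stood at -0.14 to 0.35 in number 1, -0.25 to 0.14 in number 2 and 0.20 to 0.38 in number 3 (limma, adjusted p = 0.127). Srebf1, whose protein drives the fatty acid genes, was at -0.13 to 0.20, 0.088 to 0.30 and -0.56 to -0.14 (limma, adjusted p = 0.0512). Number 3 held the lowest Srebf1 values, and Scd and Fasn were highest in number 1. Cleavage of the SREBP proteins was not measured, and the part of Srebf1 in the Scd and Fasn values was not tested. Insig2, Srebf2 and the sterol carrier Stard4 had adjusted p of 0.736, 0.871 and 0.404 in limma.

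The 3 uptake genes were all called by number, each in a pattern of its own. Vldlr, a receptor for ApoE-bearing lipoproteins and reelin, stood at -0.43, -0.43, -0.29 and -0.44 in number 1. It stood at 0.15, 0.20, 0.74 and 1.6e-05 in number 2 and at 0.26, 0.22, 0.13 and -0.077 in number 3. Number 1 lay below all other arrays, opposite to the synthesis genes (limma, adjusted p = 0.0222; up to 0.0834, without NT 1, IgG 1 or 11C7 1). Lpl, the lipase that frees fatty acids from lipoproteins, stood at -0.14, 0.26, 0.20 and -0.51 in number 1. It stood at -0.14, -0.30, -0.28 and -0.50 in number 2 and at 1.03, 1.06, 0.68 and 0.69 in number 3. Number 3 lay above all others, 2.25-fold over number 2 and 1.89-fold over number 1 (limma, adjusted p = 0.00443). The 14 microglial markers likewise averaged 0.39 to 0.91 in number 3 and -0.46 to 0.36 in the other arrays, and their part in the Lpl values was not tested. Lrp1, the large receptor that takes up ApoE particles, was at 0.075 to 0.66 in number 1, 0.077 to 0.37 in number 2 and -0.97 to -0.081 in number 3 (limma, adjusted p = 0.018). That call was lost without NT 3, IgG 1 or IgG 3 (up to 0.0584), and only 1 of the 2 Lrp1 probe sets, at -1.84 to -1.39 in NT 3, IgG 3 and 11C7 3, held values under -1.

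Of the 5 efflux genes, the transporters Abca1 and Abcg1 were called by number, in opposite directions. Abca1, which loads cholesterol onto ApoE, was at 0.14 to 0.71 in number 1, -0.11 to -0.045 in number 2 and 0.012 to 0.067 in number 3 (limma, adjusted p = 0.0233). Abcg1, its partner in efflux, was at -0.60 to -0.064 in number 1, 0.030 to 0.22 in number 2 and 0.032 to 0.50 in number 3 (limma, adjusted p = 0.0477). So both LXR targets separated number 1 from the rest, Abca1 above and Abcg1 below, in the averages over their probe sets. Within single Abcg1 probe sets number 1 overlapped with the rest, as with NT 1 at 0.14 and 7B12 3 at -0.34. Most Abca1 probe sets overlapped too, as with IgG 1 at -0.095 and 7B12 2 at 0.083. The Abca1 call was lost without NT 1, NT 2, NT 3, 11C7 1, 7B12 1 or 7B12 2 (up to 0.085), and the Abcg1 call without any of 11 arrays (up to 0.146). Apoe and the LXR genes Nr1h2 and Nr1h3 were not called (limma, adjusted p = 0.672, 0.591 and 0.423).

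Of the 4 genes of esterification and oxysterols, Ch25h, the interferon-induced enzyme that makes 25-hydroxycholesterol, was called by number. It stood at 0.033, 0.022, 0.63 and 0.49 in number 1, -0.64, -0.59, -0.35 and 0.12 in number 2 and 0.12, 0.32, 0.042 and 0.98 in number 3. Number 2 was the lowest in each group (limma, adjusted p = 0.0293; up to 0.0868, with the call lost without any of 9 arrays). Cyp46a1, the neuronal 24-hydroxylase, was at -0.71 to -0.19 in number 1, 0.15 to 0.66 in number 2 and -0.67 to 0.44 in number 3, so that numbers 1 and 2 did not overlap (limma, adjusted p = 0.0791). Neuronal markers were likewise lowest in number 1 and highest in number 2, and their part in the Cyp46a1 values was not tested. Soat1, which esterifies cholesterol, and Cyp27a1, the 27-hydroxylase, had adjusted p of 0.358 and 0.392 in limma.

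Of 45 further genes of these pathways, listed from general knowledge, 43 were measured and 19 (44.2%) were called by number, beside 23.6% of all genes. Leaving out 1 array left 8 to 19 called, with 8 without NT 1, 10 without IgG 1 and 11 without 7B12 1. The share of all genes called in those 3 fits was 9.51%, 11.7% and 11.5%. In 11 of the 19 number 1 was the highest and in 4 the lowest, a split that was not counted over all called genes. Acss2, which makes acetyl-CoA from acetate, was 2.16-fold higher in number 1 than in number 2 and 2.08-fold higher than in number 3 (limma, adjusted p = 0.00205). Fads2 and Fads1, the desaturases of polyunsaturated fatty acids, were 2.46-fold and 1.62-fold higher in number 1 than in number 2 (limma, adjusted p = 0.00312 and 0.00472). Acat1, the mitochondrial thiolase of ketone metabolism, went the other way and was 1.63-fold higher in number 3 than in number 1 (limma, adjusted p = 0.00551).

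**Figure D3:**
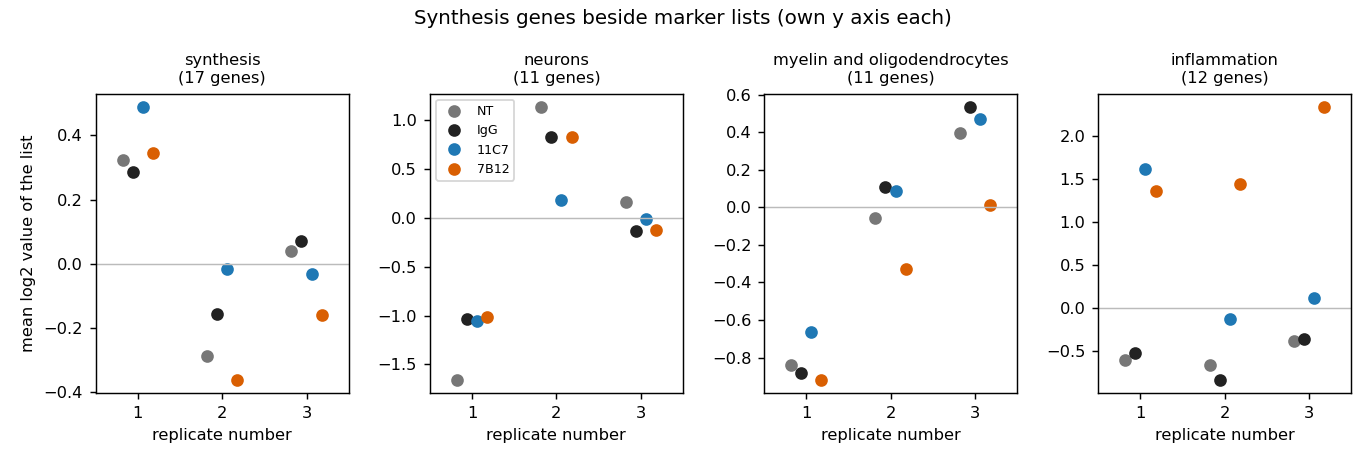
Mean log2 ratio less the array median (vertical axis, with its own scale in each panel) of the 17 synthesis genes and of the neuronal, myelin and inflammation markers, against replicate number, with 1 point per array and the group by colour. The 4 arrays numbered 1 have synthesis means of 0.29 to 0.49, neuronal means of -1.65 to -1.01 and myelin means of -0.92 to -0.66.

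The question the study's design puts is how the antibodies to Nogo-A alter expression in this tissue. For 7B12 against the 6 controls, limma called 0 of 14217 genes (0%) and 0 of the 39 members at an adjusted p under 0.05. At an unadjusted p under 0.05 it had 860 genes (6.05%) and 2 members, Sc5d and Srebf2. Of the 39 members 27 had differences below 0, with a median of -0.078, beside 52.1% of all genes above 0 with a median of 0.012. The synthesis genes had a median difference of -0.12, with 14 of 17 below 0. The 4 fatty acid genes had -0.22, all below 0 in the averages over their probe sets.

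Sc5d, the desaturase that makes 7-dehydrocholesterol, stood at -0.12, -0.10 and -0.32 in the 7B12 arrays numbered 1 to 3. It stood at 0.22, 0.10 and -0.0097 in NT, 0.19, 0.27 and 0.13 in IgG and 0.15, 0.20 and 0.078 in 11C7. The 7B12 arrays lay below all 9 others. The difference from the controls was -0.33 ± 0.12 (SE, 3 against 6 arrays), 1.25-fold lower, and did not pass (limma, unadjusted p = 0.0177, adjusted p = 0.649). All 3 of its probe sets had differences below 0, at -0.31, -0.25 and -0.42.

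Srebf2, whose protein is the main driver of the synthesis genes, stood at 0.29, -0.43 and 0.55 in 7B12. It stood at -0.63, -0.18 and -1.71 in NT, -0.61, -1.56 and -0.42 in IgG and -1.19, -0.51 and 0.062 in 11C7. The 7B12 array numbered 2 lay among the controls. The difference from the controls was 0.99 ± 0.42 (SE; limma, adjusted p = 0.792). It came from 1 of 2 probe sets, which had a difference of 2.11 and a median ratio of 0.526, while the other had -0.13, so the direction for Srebf2 rests on the probe set taken.

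Scd differed by -0.43 ± 0.55 (SE) between 7B12 and the controls, Fasn by -0.27 ± 0.27 and Lpl by -0.40 ± 0.42, none passing in limma (adjusted p = 1.000 each). Without 1 array in turn the difference ranged from -0.99 to -0.0054 for Scd and from -0.54 to -0.074 for Fasn, with the lower end without 7B12 1 and the upper end without 7B12 3 in both. For Lpl it ranged from -0.80 without 7B12 3 to -0.20 without 7B12 1. These fits had no term for the replicate number, so leaving out an array also left the numbers unbalanced between groups. With the number as a term, the ranges were -0.54 to -0.25 for Scd, -0.34 to -0.18 for Fasn and -0.47 to -0.28 for Lpl. The SE above came from the fit without that term and so hold the differences among numbers. Taken within each number, the differences averaged -0.43 ± 0.23 (SD, n = 3) for Scd, -0.27 ± 0.12 (SD) for Fasn and -0.40 ± 0.15 (SD) for Lpl. Ch25h differed by 0.65 ± 0.31 (limma, unadjusted p = 0.0599, adjusted p = 0.856). The 11 measured interferon genes averaged 1.03, 0.87 and 2.56 in the 7B12 arrays and -0.52 to -0.21 in the controls, and their part in the Ch25h values was not tested.

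For 11C7 against the same 6 controls, limma called 0 genes (0%) and 0 members at an adjusted p under 0.05. At an unadjusted p under 0.05 there were 425 genes (2.99%) and 1 member, Stard4. Here 30 of the 39 members had differences above 0, with a median of 0.087, beside 56.1% of all genes and a median of 0.031. The synthesis genes had a median of 0.13, with 15 of 17 above 0. Stard4, a carrier of sterol between membranes and an SREBP target, stood at 0.25, 0.21 and 0.31 in the 11C7 arrays. It stood at 0.016, -0.36 and -0.23 in NT, 0.13, -0.15 and -0.39 in IgG and 0.082, 0.11 and 0.021 in 7B12. The 11C7 arrays lay above all 9 others. The difference from the controls was 0.42 ± 0.14 (SE, 3 against 6 arrays), 1.34-fold, and did not pass (limma, unadjusted p = 0.0157, adjusted p = 1.000). Most of it came from 1 of 3 probe sets, at 1.07, with the others at 0.048 and 0.14.

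With both antibodies pooled against the controls, 0 genes (0%) and 0 members passed in limma. There were 695 genes (4.89%) and 1 member, again Stard4 at 0.33 ± 0.12 (SE; adjusted p = 0.888), at an unadjusted p under 0.05. The synthesis median was 0.026, with 10 of 17 above 0. The control IgG against NT had 0 genes (0%) called, 272 genes (1.91%) and 0 members at an unadjusted p under 0.05, and a synthesis median of 0.032. An F test over the 4 groups called 0 genes (0%) as well, with 516 genes (3.63%) and 0 members at an unadjusted p under 0.05. The one-way analysis of variance that the methods name put 422 genes (2.97%) and 2 members, Sc5d and Stard4, past p of 0.05 and 1.2-fold, and 0 after Benjamini-Hochberg adjustment.

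**Figure D4:**
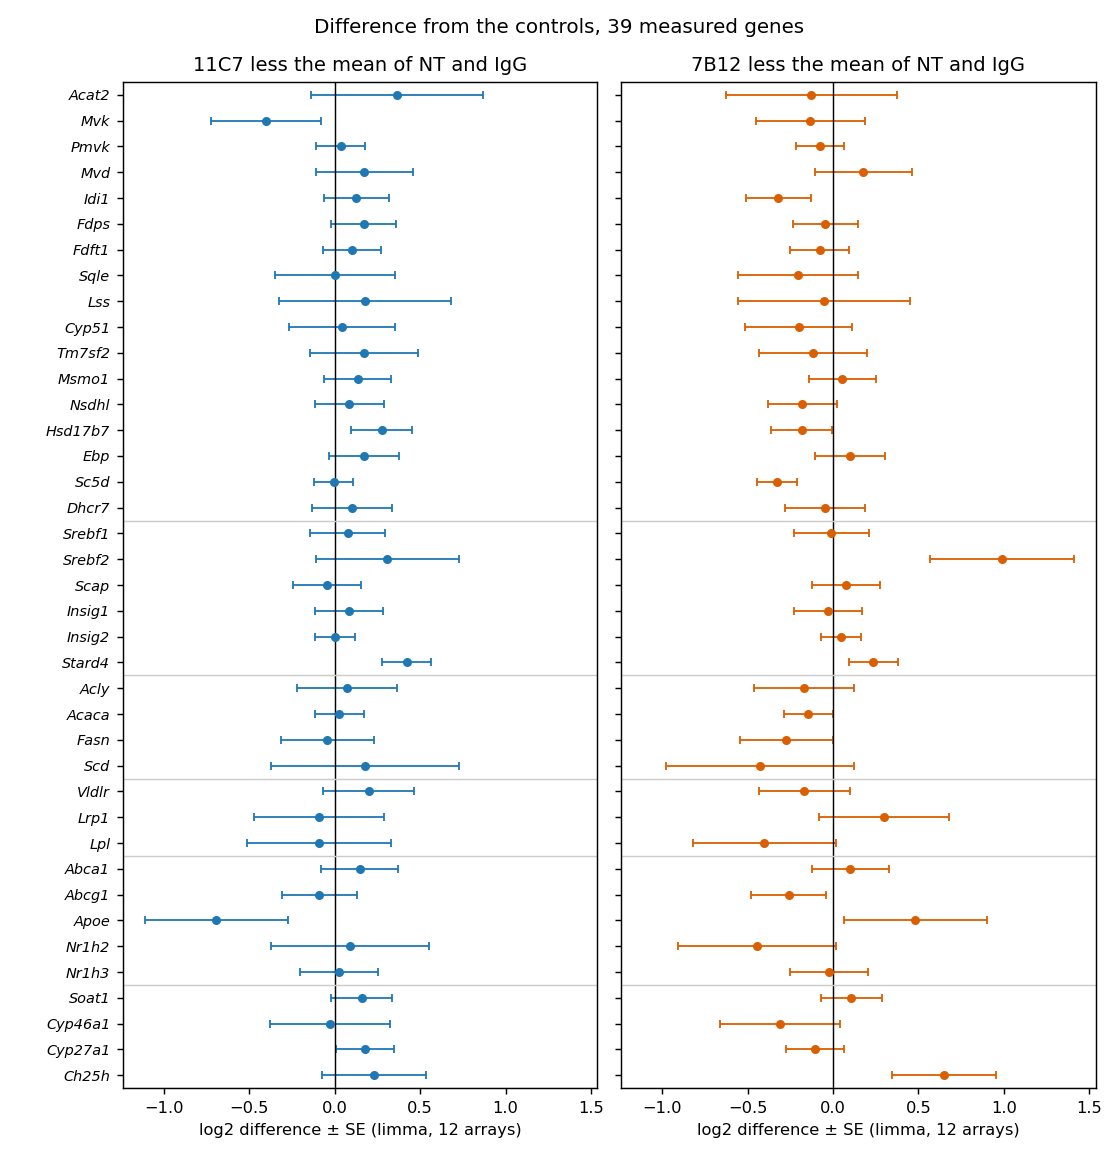
Difference in log2 ratio from the 6 control arrays for each of the 39 genes, by role, with 1 point for 7B12 and 1 for 11C7 and bars of 1 SE from limma. For 7B12, 14 of 17 synthesis genes and all 4 fatty acid genes lie below 0, for 11C7 15 of 17 synthesis genes lie above 0, and no gene passed at an adjusted p under 0.05.

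Both antibodies were also set directly against each other, since the comparisons above share their control arrays. Limma called 0 genes (0%) and 0 members in 7B12 less 11C7. At an unadjusted p under 0.05 there were 524 genes (3.69%) and 2 members, Sc5d and Apoe. Of the 39 members 31 had differences below 0, with a median of -0.18, beside 48.8% of all genes above 0 and a median of -0.0087. The synthesis genes had a median of -0.21, with 15 of 17 below 0. Without 11C7 1 or other single arrays the synthesis median ranged from -0.35 to -0.0016. With the replicate number as a term in these fits it ranged from -0.24 to -0.16. Sc5d differed by -0.32 ± 0.13 (SE), 1.25-fold lower in 7B12 (limma, adjusted p = 1.000). Apoe, the main lipoprotein of the brain, stood at -0.088, 0.22 and 0.18 in 7B12 and at 0.012, -1.76 and -1.47 in 11C7. It stood at -0.12, 0.14 and -0.07 in NT and at -0.95, -1.42 and 0.17 in IgG. Low values thus appeared in 4 arrays of the IgG and 11C7 groups and in none of the others. The difference between the antibodies was 1.18 ± 0.48 (SE; limma, unadjusted p = 0.0358, adjusted p = 1.000). It was 2.08 in 1 of 2 probe sets and 0.28 in the other, and the 4 low arrays were low in the first probe set, at -3.18 to -1.40, and at -0.51 to 0.25 in the second.

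Within each replicate number the antibody array was also set against the mean of the NT and IgG arrays of that number, as a description. For 7B12, 13 of the 39 members lay below the controls in all 3 numbers, beside 15.9% of all genes, and 5 lay above in all 3, beside 19.5%. All 4 fatty acid genes were among the 13, with 7 synthesis genes (Acat2, Cyp51, Dhcr7, Nsdhl, Pmvk, Sc5d and Sqle), Lpl and Vldlr. For Acaca this held in 1 of its 2 probe sets and in their average. In the other probe set 7B12 stood at 0.11, 0.0063 and 0.14 in numbers 1 to 3. There NT stood at -0.0061, 0.13 and -0.10 and IgG at 0.013, 0.37 and -0.12. The 5 above were Apoe, Ch25h, Mvd, Srebf2 and Stard4. Several marker lists were also below these controls in all 3 numbers with 7B12. The differences in numbers 1 to 3 were -0.056, -0.35 and -0.45 for myelin, -0.15, -0.13 and -0.36 for oligodendrocyte precursors, -0.15, -0.11 and -0.43 for astrocytes and -0.50, -0.50 and -0.64 for endothelium. The part of these lists in the lower synthesis and fatty acid values was not tested. For 11C7, 0 members lay below in all 3 numbers, beside 10.6% of all genes, and 7 lay above, beside 14.2%. Those 7 were Cyp27a1, Cyp51, Dhcr7, Hsd17b7, Srebf1, Stard4 and Tm7sf2. Between the antibodies, 7B12 lay below 11C7 in all 3 numbers for 15 members, beside 14.6% of all genes, and above for 2 (Lrp1 and Srebf2), beside 12.8%. Of the 15, 11 were synthesis genes. Lrp1 and Srebf2 were above in the averages over their probe sets. In 1 Lrp1 probe set 7B12 stood at 0.38, 0.034 and -0.70 and 11C7 at 0.23, 0.15 and -0.23. In 1 Srebf2 probe set 7B12 stood at 0.32, 0.072 and -0.23 and 11C7 at 0.31, -0.30 and -0.0059.

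The same-number difference of the synthesis list from the controls varied in sign with either antibody. The synthesis mean of 7B12 less its controls was 0.042, -0.14 and -0.21 in numbers 1 to 3, and that of 11C7 was 0.18, 0.20 and -0.085. So 11C7 was above its controls in numbers 1 and 2 and 7B12 below in numbers 2 and 3. Between the antibodies the synthesis mean had 1 sign, with 7B12 less 11C7 at -0.14, -0.34 and -0.13. The fatty acid mean of 7B12 less controls was -0.20, -0.22 and -0.34, or -0.25 ± 0.074 (SD, n = 3). In 11C7 it was -0.088, 0.078 and 0.18. Scd differed by -0.30 and -0.29 in numbers 1 and 2 and by -0.69 in number 3. Fasn differed by -0.23, -0.18 and -0.41. Ch25h differed by 0.46, 0.73 and 0.76 in 7B12. IgG less NT gave 2 members below and 2 above in all 3 numbers, beside 13.1% and 12.1% of all genes.

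**Figure D5:**
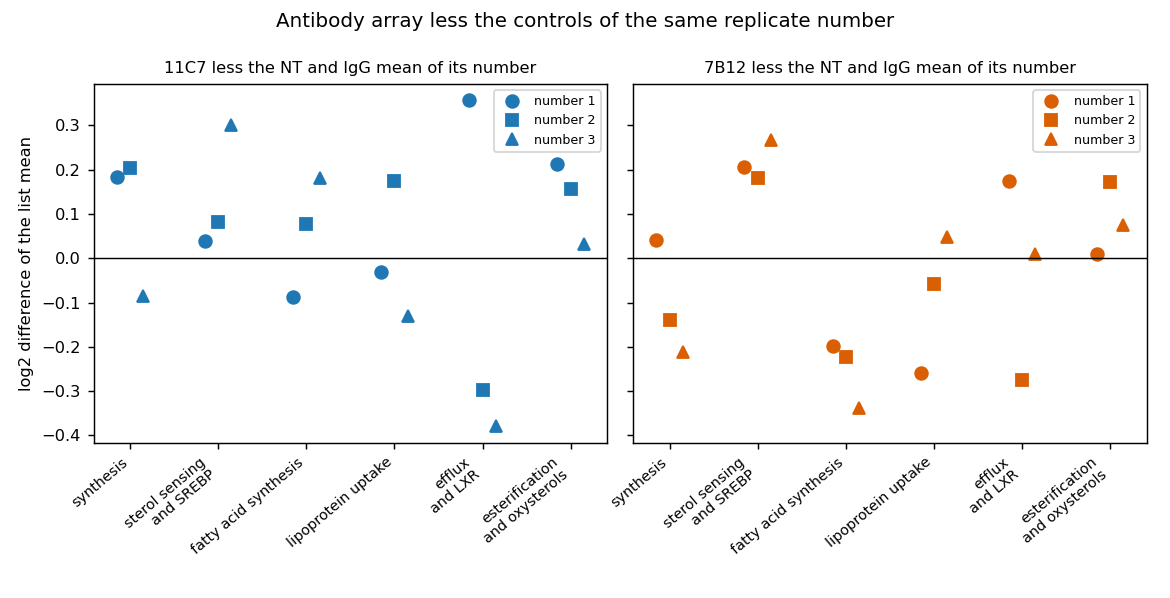
Differences in mean log2 ratio between an antibody array and the mean of the NT and IgG arrays of its replicate number, for each role, with 1 point per number. The fatty acid mean of 7B12 lies at -0.34 to -0.20, and the synthesis means of 7B12 and 11C7 each cross 0.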

How the data were processed

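Per the labels' protocols, biotin-labelled RNA of the 12 slice culture samples went onto Affymetrix arrays for rat. The submitters' processing notes name GCOS 1.4 and MAS5, whose version is not given in the sources used here. What the authors deposited are ratios of each probe set to its own reference. The design text names the control median for this, but the median was 1 over all 12 arrays in 76.4% of probe sets and 1 over the 6 controls in 11.2% (tolerance 0.0015), so the reference looks like the median of all arrays. A constant divisor leaves log2 differences as they are.

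Of 31099 probe sets, 57 spike-in controls were left out. Of the other 31042, 20826 (67.1%) had 1 gene symbol, 436 several and 9780 none in the platform annotation. Symbols were matched by Entrez identifier for 20758, and 0 changed. Log2 ratios less each array's median were averaged over the probe sets of a gene, for 14217 genes. The 39 measured members had 69 probe sets, and 22 of them had more than 1.

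With limma 3.58.1 under R 4.3.3, lmFit and eBayes were run for each gene over all 12 arrays, with 1 mean per group and two-sided tests. Controls were the mean of NT and IgG. P-values were adjusted by Benjamini-Hochberg over all genes, with a threshold of 0.05. Replicate numbers were compared by an F test with group as a term. Errors after ± are SE of that fit unless given as SD. The code was tested on simulated data with known changes. Groups and numbers came from the sample titles.

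The members, their roles, the further pathway genes and the marker lists were chosen with earlier results of these data known. Values in all arrays were to be given for members with an unadjusted p under 0.05 and at least 1.2-fold in a contrast and for the member with the smallest F test p over groups in each role; further members were taken up for their differences among numbers, after their values were seen. Promoters came from RefSeq (GRCr8) by symbol, and no genome was used. Alternatives were other scalings, filters, probe set rules, variance models, array weights, a pseudocount of 0.1, IgG alone as control, a replicate block and leaving out each array.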

Additional observations from a re-analysis of the deposited data

How the results depend on the processing

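The count of members called stayed at 0 in every antibody comparison, in IgG against NT and in the F test over groups, under each alternative run. The counts over all genes, 0 in each of these, moved in some fits. Without 1 array in turn they ranged from 0 to 19 for 7B12 (19 without 11C7 1), from 0 to 1 for 11C7, for both antibodies and for the F test over groups, and stayed at 0 for IgG against NT and for 7B12 against 11C7. When each gene was read from its least variable probe set, IgG against NT had 1 gene called. The synthesis median, without 1 array in turn, ranged from -0.36 to 0.023 for 7B12, from -0.068 to 0.19 for 11C7 and from -0.35 to -0.0016 for 7B12 less 11C7. Each move was under the 0.26 SD between arrays. That SD was taken within groups and holds the differences among replicate numbers, so a move under it does not show stability. With the replicate number as a block the ranges were -0.19 to -0.059, 0.069 to 0.19 and -0.24 to -0.16 in the same order. Srebf2 in 7B12 turned from 0.99 to -0.13 with probe sets of a median ratio under 1 left out, and likewise with its least variable probe set, since both leave its other probe set.

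The F test over replicate numbers called 1352 to 3485 genes and 11 to 18 members without 1 array in turn. It called 5545 of the probe sets when these were fitted in place of genes. With probe sets of a median ratio under 1 left out it called 26 members, beside 35.7% of the 12082 genes that remain. In all settings run 10 members were called, a count that was not taken over all genes. Fdft1, Nsdhl, Abca1 and Abcg1 lost their call with the least variable probe set, Fdft1 also with quantile normalization and Abcg1 with robust variances.

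Samples of different groups shared only a number in the labels. Over 18 same-numbered pairs of arrays, the correlation of deviations from the group means ran from 0.0969 to 0.427, and 17 pairs were over 0.1. Each of the 12 arrays was most like its own number, a hint from the data and not from the design. With the replicate number as a block, 0 genes and 0 members passed in any comparison of groups. The counts at an unadjusted p under 0.05 were 1682 of 14217 genes and 5 of 39 members for 7B12 (limma). With the same totals they were 851 and 1 for 11C7, and 1170 and 6 for 7B12 less 11C7. In the block fit without 1 array in turn the calls reached 133 genes for 7B12, 49 for 7B12 less 11C7 and 41 for the F test over groups, each without 11C7 1. They reached 1 gene for 11C7, without 11C7 2, and 7B12 had 1 without NT 2. The cause of these moves was not tested.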
